A study of Mus musculus with 6 samples.

Results

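Cxcl1, Cxcl2, Cxcl3 and Cxcl5 encode CXC chemokines that attract neutrophils. All 4 were found, by gene symbol, among the 559 genes of the deposited table, and their level was compared between natural killer (NK) cell cultures with and without oleic acid (OA), a monounsaturated fatty acid. The cells were NK cells purified from the spleens of C57BL/6 mice, and all of them were cultured for 36 h. The 3 control libraries came from cells without OA and the 3 OA libraries from cells given 0.2 mM OA. The labels describe the treatment as done only once; they name no age, sex, vehicle or number of animals, and do not say whether the libraries came from separate mice or cultures, so p-values measure the spread between these libraries, which may be technical.

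These chemokines are small secreted proteins with a glutamate-leucine-arginine sequence before the first cysteines, the feature that lets them bind CXCR2, the main chemokine receptor of neutrophils. Macrophages, monocytes, fibroblasts and endothelial cells make them within hours of a signal through interleukin 1, tumour necrosis factor or Toll-like receptors, largely through the transcription factor NF-kB. Their messenger RNAs are short-lived, because AU-rich elements in the 3' untranslated region recruit decay factors. NK cells are better known for secreting interferon gamma and CC and XC chemokines such as Ccl3, Ccl4, Ccl5 and Xcl1.

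The table holds genes with an authors' Q value under 0.05 only (559 of 559 genes, 100%), so the 4 chemokines were selected on the same libraries and the tests below describe listed genes. A gene that is not listed may still be expressed. Values are TPM, a gene's share of a library's transcripts scaled for transcript length, so levels of different genes can be set side by side. TPM keeps no read numbers and the depth is unknown. No library was a copy of another. Control replicates 1 and 2 were the closest pair, with a median absolute log2 difference of 0.0456 over the table, against 0.125 and 0.139 from control replicate 3 to each of them. OA replicate 3 stood apart by heart muscle transcripts: the 16 listed heart muscle markers summed to 6644 TPM there, to 491 TPM in OA replicate 2 and to between 35.3 and 58.2 TPM in the other 4 libraries.

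The 4 genes lie in one cluster on chromosome 5, within 147 kb that hold 7 protein-coding genes in RefSeq on GRCm38.p6, the same assembly as the mm10 build named in the submitters' processing notes. Cxcl5 occupies chr5:90759298-90761625, Cxcl3 chr5:90786101-90788093, Cxcl1 chr5:90891245-90893121 and Cxcl2 chr5:90903899-90905938. Ppbp, which encodes platelet basic protein, another member of the family, lies between Cxcl5 and Cxcl3 and was also in the table. Pf4 (platelet factor 4) and Cxcl15 (lungkine), the other genes of the cluster, were not among the listed genes.

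RefSeq promoter windows were found for Cxcl1, Cxcl2 and Cxcl3, while none was matched for Cxcl5. They are shown because they share a run of letters that holds a textbook NF-kB motif, in front of a TATA-like element. Each line gives the 150 bases before the annotated start on the forward strand of GRCm38.p6, at chr5:90891095-90891244, chr5:90903749-90903898 and chr5:90785951-90786100 in this order. The first run of capitals is GGGAATTTCCC, the longest run that the 250 bases before the start of all 3 genes have in common, and the second is ATAAAA.
Cxcl1: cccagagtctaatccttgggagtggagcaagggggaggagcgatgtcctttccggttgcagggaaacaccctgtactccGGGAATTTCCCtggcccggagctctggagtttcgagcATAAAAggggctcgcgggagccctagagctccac
Cxcl2: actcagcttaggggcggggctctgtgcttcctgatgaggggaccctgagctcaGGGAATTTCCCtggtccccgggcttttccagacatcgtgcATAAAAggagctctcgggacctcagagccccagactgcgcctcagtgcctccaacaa
Cxcl3: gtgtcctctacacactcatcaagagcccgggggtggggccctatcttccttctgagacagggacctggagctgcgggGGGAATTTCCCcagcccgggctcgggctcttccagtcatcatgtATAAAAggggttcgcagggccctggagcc

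The shared run began 71 bases before the start in Cxcl1, 97 in Cxcl2 and 73 in Cxcl3, and the TATA-like letters began 37, 40 and 44 bases after its first base. Searched on both strands, GGGAATTTCCC was present in 14 of 32851 mouse promoter windows of 300 bases (250 before and 50 after the start), or 0.0426%. The run was chosen because these 3 windows share it; of the 544 windows of listed genes no other held it. The looser pattern GGGNNNNNCC, which overlaps it, was in all 3 windows but also in 50.8% of all windows. ATAAAA was in 18.5% of all windows. The AP-1 motif TGANTCA was in 7.81% of all windows and these letters are not in the 3 windows. A match is a description of the sequence, not a measured binding site.

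**Figure D1:**
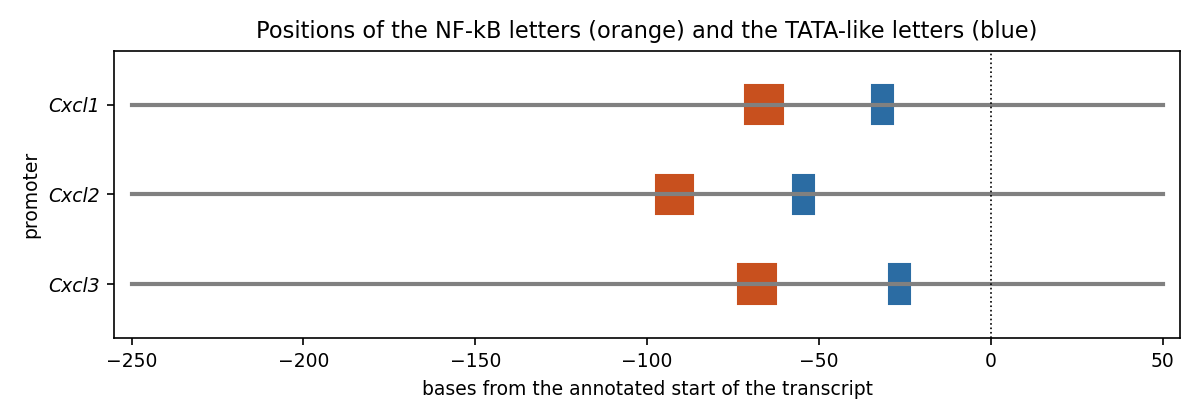
Positions of GGGAATTTCCC (orange) and ATAAAA (blue) along the promoter windows of Cxcl1, Cxcl2 and Cxcl3; the x axis is the distance in bases from the annotated start (dotted line). In each promoter the orange block lies upstream of the blue block, at 71, 97 and 73 bases before the start.

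The 3' untranslated regions, from GENCODE M21 transcripts matched to RefSeq, held many copies of ATTTA, the core of the AU-rich decay element. Cxcl2 had 11 copies in 734 bases, Cxcl1 had 7 in 592, Cxcl3 had 5 in 645 and Cxcl5 had 5 in 1111, against a median of 1 copy over 19270 genes; 17.7% of those genes had 5 or more. The densest 30 bases of Cxcl5 held 1 copy. A link between ATTTA copies and the size of the change was not tested. The densest 30 bases of the 3 genes with the largest change are shown, with ATTTA in capitals. They are given because 1 of the listed decay factors described further down, tristetraprolin, binds AU-rich elements.
Cxcl1: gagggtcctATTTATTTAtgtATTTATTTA
Cxcl2: tATTTATTTAtctatgtATTTATTTATTTA
Cxcl3: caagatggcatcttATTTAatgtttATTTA

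All 4 chemokine transcripts were higher after OA. Cxcl1, Cxcl2 and Cxcl3 stood at about the 2-fold level and Cxcl5, the least abundant, rose by less. Together they summed to 2527, 2805 and 1599 TPM in control replicates 1, 2 and 3 and to 4326, 4691 and 5168 TPM in OA replicates 1, 2 and 3. The mean of this sum went from 2310 ± 632 to 4728 ± 422 TPM (SD, n = 3 per group), or from 0.231% to 0.473% of each library's transcripts.

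Cxcl2, which encodes the chemokine also called MIP-2, was the most abundant of the 4. Control replicates 1, 2 and 3 held 1276, 1375 and 864 TPM, and the OA replicates, in the same order, 2107, 2212 and 2450 TPM. The groups did not overlap, and control replicate 3 was the lowest library. The mean rose from 1171 ± 271 to 2256 ± 176 TPM (SD, n = 3 per group), 1.93-fold, with a log2 fold change of 0.97 on the log2(TPM + 1) scale (SE 0.193, 95% interval 0.48 to 1.46, limma adjusted p = 0.026). By mean TPM it ranked 19 among the listed genes in control and 7 in OA.

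Cxcl3, which encodes another CXCR2 ligand, followed in level. Its control values were 932, 1072 and 563 TPM and its OA values were 1640, 1854 and 2064 TPM, in the order of the replicates. Again the groups did not overlap and control replicate 3 was lowest. The mean rose from 855 ± 263 to 1853 ± 212 TPM, 2.17-fold (log2 1.16, SE 0.262, 95% interval 0.50 to 1.82, limma adjusted p = 0.026), and the rank among the listed genes moved from 31 to 8.

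Cxcl1, which encodes KC, the chemokine most often used as a mouse readout for human interleukin 8, had control values of 303, 342 and 159 TPM and OA values of 556, 604 and 633 TPM. The lowest OA library was 1.63 times the highest control, while control replicate 3 was at 0.492 of the mean of the other controls. The mean rose from 267.8 ± 96.4 to 597.8 ± 38.7 TPM, 2.23-fold (log2 1.23, SE 0.303, 95% interval 0.46 to 1.99, limma adjusted p = 0.0282). Of the 82 listed genes whose OA mean was over 2 times the control mean (14.7% of the table), limma called 15 as higher. The 82 included the listed heart muscle markers, which did not pass and were highest in OA replicate 3. Among the 82, 3 had at least 100 TPM in every control library: Cxcl1, Cxcl3 and Hilpda, a lipid droplet gene.

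Cxcl5, which encodes LIX and is best known from epithelial and stromal cells, was at a far lower level. The control values were 16.3, 17.1 and 13.5 TPM and the OA values 21.96, 21.3 and 21.2 TPM. The OA libraries were close together and all above the controls. The mean rose from 15.6 ± 1.91 to 21.5 ± 0.416 TPM, 1.37-fold (log2 0.44, SE 0.0957, 95% interval 0.20 to 0.68, limma adjusted p = 0.026).

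**Figure D2:**
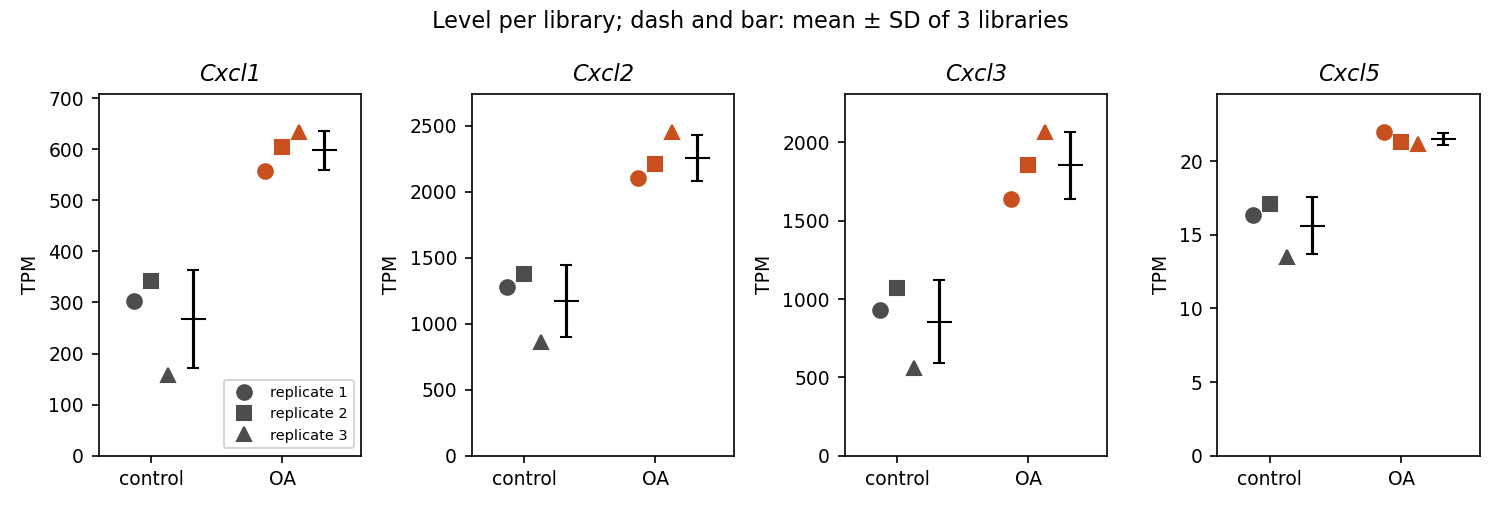
Level in TPM (y axis, from 0) of Cxcl1, Cxcl2, Cxcl3 and Cxcl5 in the control (grey) and OA (orange) libraries; circles, squares and triangles are replicates 1, 2 and 3, and the dash with its bar is the mean ± SD of 3 libraries. In each panel the 3 OA libraries lie above the 3 controls, and the triangle of control replicate 3 is the lowest point.

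All 4 thus passed as higher in limma at an adjusted p under 0.05, where 36% of the listed genes did, and in all 4 every OA library was above every control, where 45.1% of the listed genes were. In the authors' deposited table the log2 fold changes were 1.16 for Cxcl1, 0.95 for Cxcl2, 1.122 for Cxcl3 and 0.47 for Cxcl5, with Q values of 0.0212, 0.000707, 0.00429 and 0.0389. Without control replicate 1, and without OA replicate 2, limma called 0 of the 4 (adjusted p = 0.0662 for each without control replicate 1, and between 0.0793 and 0.0802 without OA replicate 2), and it then called 0 genes of the whole table; 4 of 4 had an unadjusted p under 0.05 in both. Without control replicate 3 all 4 passed, with log2 fold changes of 0.89 for Cxcl1, 0.77 for Cxcl2, 0.88 for Cxcl3 and 0.34 for Cxcl5, and without replicate 3 of both groups they passed at 0.85, 0.70, 0.80 and 0.35.

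The order of the levels was Cxcl2, Cxcl3, Cxcl1, Cxcl5 in each of the 6 libraries. Over the control libraries the ranges of Cxcl2 and Cxcl3 overlapped, and over the OA libraries they did not, with the lowest Cxcl2 at 2107 TPM and the highest Cxcl3 at 2064 TPM; Cxcl1 and Cxcl5 lay clear of both and of each other. Cxcl2 made up 51.2 ± 2.58% of the sum in control and 47.8 ± 0.840% in OA, and Cxcl3 36.8 ± 1.51% and 39.1 ± 1.07%. Cxcl1 made up 11.4 ± 1.25% and 12.7 ± 0.358%, and Cxcl5 0.699 ± 0.125% and 0.457 ± 0.0490%. Cxcl2 and Cxcl3 are close relatives: their coding sequences were 89.8% identical and their transcripts shared a run of 110 identical bases. Of all stretches of 50 bases, 5.75% of those in Cxcl2 and 6.31% of those in Cxcl3 occurred in the other transcript. Reads from within the shared run cannot be told apart, so the split between the pair is uncertain. Cxcl1 shared no run longer than 23 bases with either, and Cxcl5 none longer than 12 with any.

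Whether the 4 changed by different amounts was tested on the log2 ratio of each pair in each library, for 6 pairs. The change of Cxcl5 was smaller than that of Cxcl1 by 0.79, of Cxcl3 by 0.72 and of Cxcl2 by 0.53 on the log2 scale, and in each case the ratios of the groups did not overlap. The ratio of Cxcl1 to Cxcl2 also rose, by 0.26, without overlap, while the ratios of Cxcl1 to Cxcl3 (0.07) and of Cxcl2 to Cxcl3 (−0.19) overlapped. The 4 ratios without overlap had p = 0.1 (adjusted p = 0.15 over the 6 pairs) in a two-sided exact permutation test, the smallest value that 3 libraries against 3 can give, so none could pass 0.05. For the overlapping pairs the exact permutation p was 0.4 and 0.2.

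Ppbp, the neighbour of Cxcl5, did not pass in limma, while its Q value in the authors' deposited table was 0.0106. The controls held 602, 607 and 537 TPM and the OA libraries 699, 700.1 and 625 TPM (log2 0.21, 95% interval 0.01 to 0.41, limma adjusted p = 0.0514), without overlap between the groups. It was the 1 listed gene of a list of 6 other family members, receptors and the scavenger Ackr1; Cxcr1, Cxcr2 and Ackr1 were not listed.

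**Figure D3:**
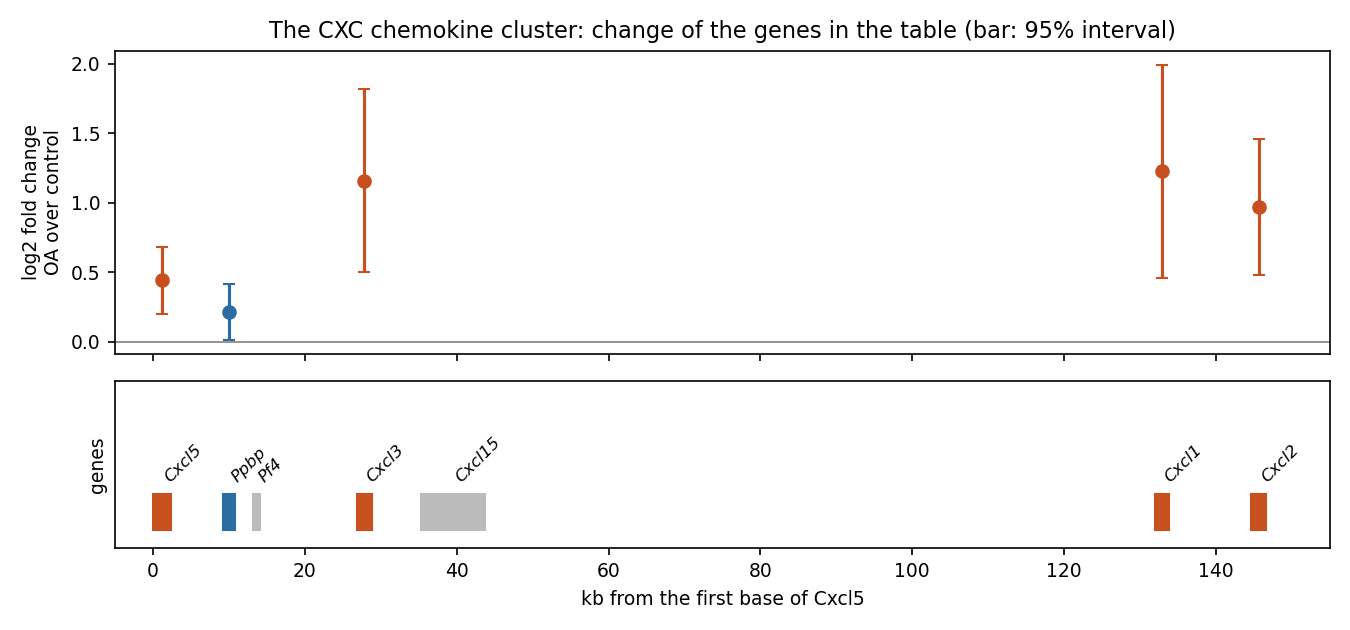
Upper panel: log2 fold change of OA over control, with its 95% interval, for the 5 genes of the cluster that were in the table; lower panel: the 7 protein-coding genes by distance in kb from the first base of Cxcl5 (orange: the 4 chemokines; blue: Ppbp; grey: genes not in the table). Cxcl3, Cxcl1 and Cxcl2 lie near a log2 change of 1, and Cxcl5 (0.44) and Ppbp (0.21) lie lower.

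Other listed chemokine genes changed in both directions. Cxcl9, Cxcl10 and Xcl1 were the 3 listed genes of 10 fixed as further CXC, CX3C and XC chemokines, and all 3 fell, where 40.1% of the listed genes did. Cxcl9, an interferon gamma-induced attractant of T cells, had control values of 16.9, 16.9 and 27.7 TPM and OA values of 11.7, 8.99 and 5.73 TPM, for replicates 1, 2 and 3 (log2 −1.14, SE 0.307, limma adjusted p = 0.0301). Cxcl10, which acts on the same receptor, fell from 166 ± 35.5 to 109.6 ± 14.5 TPM (log2 −0.58), and Xcl1, an attractant of dendritic cells made by NK cells, from 528 ± 44.3 to 366 ± 34.5 TPM (log2 −0.53). Within the CXC family, Cxcl1, Cxcl2, Cxcl3 and Cxcl5 were higher and the listed interferon-induced members Cxcl9 and Cxcl10 lower in the same OA libraries. Ppbp, a further listed member with the glutamate-leucine-arginine sequence, was 1.16-fold higher without overlap between the groups but did not pass.

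Of 19 CC chemokines fixed, 8 were listed; 6 rose and 2 fell, where 36% of all listed genes rose and 40.1% fell. Their median log2 fold change was 0.54, beside 0.14 over all listed genes. Ccl9 rose most, 1.92-fold, level with Cxcl2. The monocyte attractant genes Ccl2 and Ccl7 rose 1.57-fold and 1.71-fold. Ccl3 and Ccl4, which both NK and myeloid cells make, rose from 1908 ± 252 to 2717 ± 91.7 TPM and from 842 ± 125 to 1227 ± 39.6 TPM, and Ccl6 rose 1.22-fold. Ccl5 fell from 1575 ± 69.7 to 1124 ± 119 TPM and Ccl24, the eosinophil attractant eotaxin 2, from 23.7 ± 7.91 to 11.1 ± 0.847 TPM. Among the listed chemokines the level of Cxcl2 came after those of Ccl3 and Ccl5 in control, and after that of Ccl3 alone in OA. Without control replicate 1 and without OA replicate 2 none of these CC genes passed; under the other 4 omissions 6 rose and 2 fell.

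**Figure D4:**
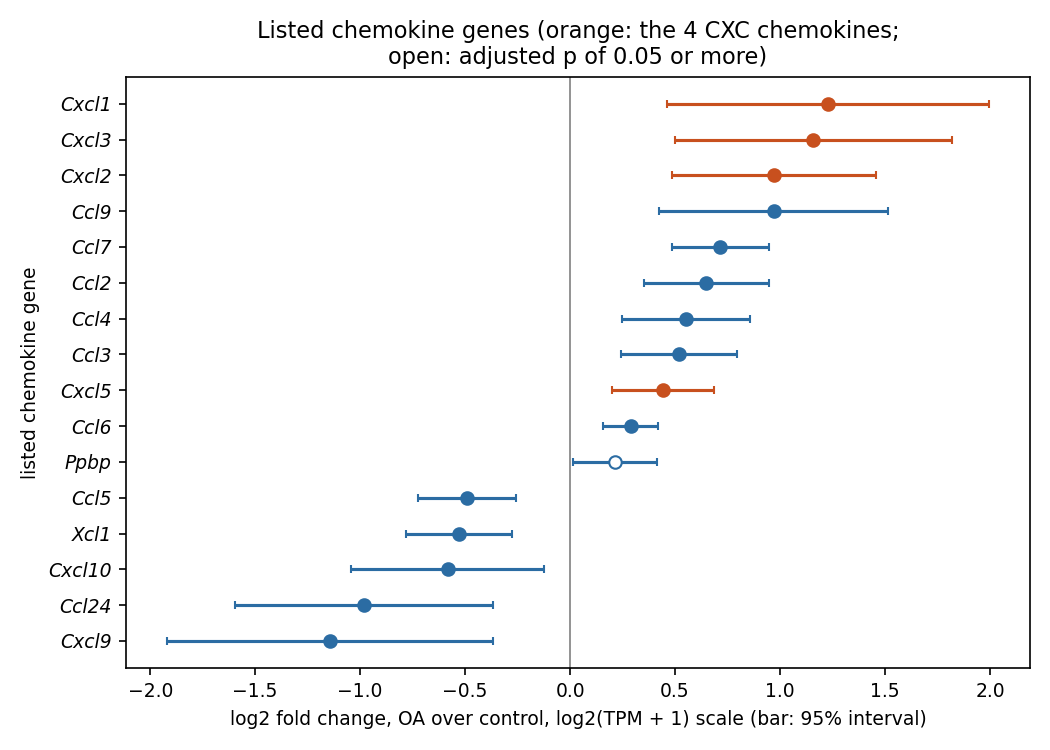
log2 fold change of OA over control on the log2(TPM + 1) scale (x axis) with its 95% interval for the 16 listed chemokine genes (y axis); orange marks the 4 neutrophil-attracting CXC chemokines, blue the others, and the open point (Ppbp) did not pass. Cxcl1 (1.23), Cxcl3 (1.16), Cxcl2 (0.97) and the CC chemokine Ccl9 (0.97) lie at the upper end and Cxcl9 (−1.14) at the lower end.

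Among the cytokines and sensors that act upstream of these chemokines, 10 of 27 fixed genes were listed; 6 rose and 4 fell, beside 36% and 40.1% of all listed genes. The share that fell was thus at that of the table, and the median log2 fold change was 0.22, beside 0.14 over all listed genes. Il1a and Il1b, the interleukin 1 genes, stood high in every library and rose from 1266 ± 70.8 to 1645 ± 44.7 TPM and from 3246 ± 137 to 3850 ± 111 TPM. Their antagonist Il1rn rose from 374 ± 41.2 to 516.1 ± 31.8 TPM. Cd14, a co-receptor for lipopolysaccharide, rose 1.46-fold, Il6 1.26-fold and Tnf 1.14-fold. Il17f, a cytokine that induces these chemokines in stromal and epithelial cells, fell from 76.2 ± 16.4 to 41.2 ± 6.71 TPM, and Lta, Csf2 and Nod1 fell to 0.638, 0.761 and 0.731 of control. Under the 4 omissions other than control replicate 1 and OA replicate 2, between 4 and 6 rose and between 0 and 4 fell.

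Of 25 fixed subunits and feedback genes of NF-kB and AP-1, 5 were listed, of which 3 rose, 1 fell and 1 did not pass, where 36% of all listed genes rose and 40.1% fell; so few listed genes allow no reading against those shares. Nfkbiz, which encodes a nuclear cofactor of NF-kB, rose from 111.5 ± 4.79 to 133 ± 1.80 TPM, 1.19-fold. Fos and Egr1, immediate early factors, rose 1.45-fold and 1.23-fold, and Jund fell to 0.866 of control. The NF-kB subunit genes Nfkb1, Nfkb2, Rel, Rela and Relb were not listed. Of 15 genes fixed as factors in the decay or stabilisation of such transcripts, 4 were listed; 3 rose and 1 fell, again too few to read against the table. Zfp36, which encodes tristetraprolin, a protein that binds AU-rich elements and speeds decay, rose from 299.5 ± 8.53 to 369 ± 11.1 TPM, and Zc3h12a, which encodes the nuclease regnase 1, rose 1.20-fold. Dusp1, which encodes a phosphatase that limits p38 signalling, rose 1.26-fold, while Arid5a, which encodes a stabilising factor, fell from 42.5 ± 2.63 to 34.4 ± 2.59 TPM. These changes were all smaller in fold than those of Cxcl1, Cxcl2 and Cxcl3, a difference that was not tested.

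Marker genes of other cells moved in the same libraries. Over all listed genes, 36% rose and 40.1% fell. Of 30 markers fixed for monocytes, macrophages and dendritic cells, 10 were listed; 8 rose and 2 fell (median log2 0.37, beside 0.14 over all listed genes). With libraries scaled to equal medians over the listed genes, 5 rose and 1 fell. Their summed level was 1598 to 1870 TPM in control and 2113 to 2213 TPM in OA, with no listed marker at 0. For replicates 1, 2 and 3 Cd14 measured 469, 495 and 378 TPM without OA and 617, 661 and 688 TPM with OA. Arg1, which encodes arginase 1, rose 2.90-fold, Mmp12 1.29-fold, Vcan 1.47-fold and Apoe 1.298-fold. Ly6c2, listed here as a marker of inflammatory monocytes, fell to 0.656 of control. Ly6c2 and Ccr2, the 2 that fell, were highest in control replicate 3 and lowest in OA replicate 3, as the NK gene Ncr1 was. Which cells made the transcripts of this list was not tested. The count was smaller with any 1 library left out, at 0 to 5 higher and 0 to 1 lower. Cd14 is also counted among the sensors above.

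Of 26 neutrophil, mast cell and basophil markers, 4 were listed. Mmp8 and Mmp9, which encode a neutrophil collagenase and gelatinase, rose 1.41-fold and 2.28-fold. Mmp9 was low in both groups, at 2 to 3.3 TPM in control and 6.4 to 6.6 TPM in OA. The basophil and mast cell genes Mcpt8 and Kit fell to 0.740 and 0.856 of control. The summed level of the 4 listed markers, in which Mmp8 weighs most, was 566 to 668 TPM in control and 724 to 780 TPM in OA. The neutrophil genes S100a8, S100a9, Ly6g, Mpo and Elane were not listed. Of 15 B cell and plasma cell markers 6 were listed and 5 rose (0 to 4 with any 1 library left out), where 36% of all listed genes rose. The B cell and plasma cell markers summed to 323 to 403 TPM in control and 503 to 592 TPM in OA. Both listed T cell markers of 14 fixed, Cd28 and Icos, fell, where 40.1% of all listed genes did. These are too few to read against that share. The 1 listed stromal marker, Col3a1, measured 0.3 TPM or less in control and 0.5, 0.6 and 2.81 TPM in the OA libraries, and did not pass.

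Of 20 NK cell markers fixed, 14 were listed and all 14 fell, where 40.1% of all listed genes did. With libraries scaled to equal medians over the listed genes, 7 of the 14 passed as lower. Their sum, in which Ifng and Gzmb weigh most, was 6380 to 7798 TPM in control and 4012 to 5294 TPM in OA. Ncr1, which encodes the NK receptor NKp46, was present in every library, at 126 to 140 TPM in control and 79.1 to 105 TPM in OA. Without control replicate 1, and without OA replicate 2, 0 of the 14 passed, and without control replicate 2, and without control replicate 3, 1 did. The libraries thus held transcripts used as markers of NK, myeloid and B cells. In bulk samples fewer cells of a type and less RNA per cell cannot be told apart, and the part of these cell types in the chemokine levels was not tested.

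The summed chemokines were also set against transcripts used as myeloid markers. The ratio was higher in OA against Cd14, Il1b, Mmp12 and the summed marker list, and lower against Arg1. Per TPM of Cd14 the sum was 5.39, 5.67 and 4.23 in control replicates 1, 2 and 3 and 7.01, 7.10 and 7.51 in OA replicates 1, 2 and 3, a 1.41-fold difference of means. Per TPM of the whole monocyte, macrophage and dendritic cell list it was 1.42, 1.5 and 1.0 in control and 2.05, 2.12 and 2.34 in OA, or 1.66-fold, and per TPM of Il1b the difference was 1.74-fold. Per TPM of Arg1 the sum was lower in OA, at 27.0 against 40.8 in control, or 0.662 of control. Arg1 itself rose 2.90-fold, more than the chemokine sum, which rose 2.05-fold. No test was run on these ratios.

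The libraries fell in one order for Cxcl1, Cxcl2 and Cxcl3: control replicate 3 lowest, then control replicates 1 and 2, then OA replicates 1, 2 and 3. This order held for 61 of the 559 listed genes (10.9%), among them Ccl2, Ccl9 and Arg1. The exact reverse held for 122 genes (21.8%), among them Cxcl10, Ccl5, Ifng and Gzmb. So control replicate 3, the library with the least Cxcl1, Cxcl2 and Cxcl3, had the most Cxcl10, and OA replicate 3 had the most of the former and the least of the latter. Cxcl5 shared the order of the controls but not that of the OA libraries, which lay within 1 TPM of one another.

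**Figure D5:**
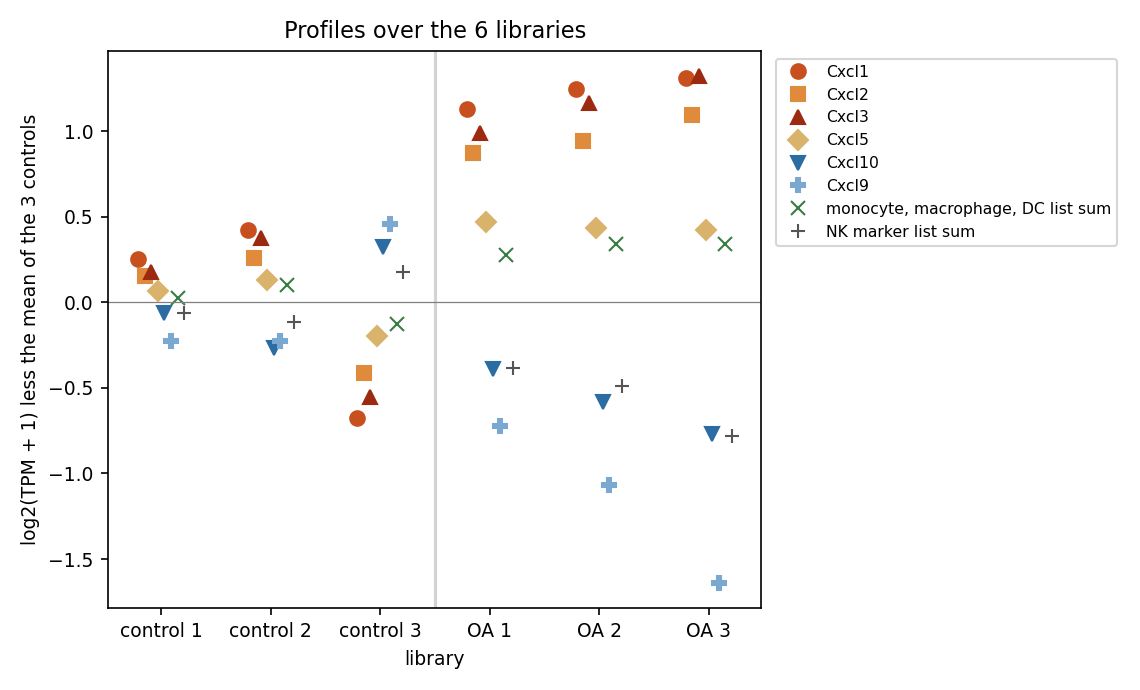
log2(TPM + 1) less the mean of the 3 control libraries (y axis) in each library (x axis) for the 4 chemokines, Cxcl9, Cxcl10, and the summed level of the monocyte, macrophage and dendritic cell (DC) marker list and of the NK marker list. Cxcl1, Cxcl2 and Cxcl3 are lowest in control replicate 3 and highest in OA replicate 3, while Cxcl10 and the NK marker sum are highest and lowest there.

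The listed genes with profiles most like the mean profile of the 4 chemokines were found from the mean absolute log2 difference over the 6 libraries, each gene taken relative to its own control mean, among genes with a mean of at least 5 TPM. Ccl9, a CC chemokine gene of myeloid cells, was nearest (0.0320), followed by the lipid droplet genes Plin2 (0.0576) and Hilpda (0.0627), Lox, which encodes lysyl oxidase (0.0680), and Serpinb2, which encodes plasminogen activator inhibitor 2 (0.101). Lox was low in both groups, with a mean of 3.30 TPM in control and 6.85 TPM in OA, so it met the minimum only through its OA level. The median distance of the other listed genes was 0.740. Of the chemokines themselves Cxcl2 lay at 0.0269, Cxcl3 at 0.136, Cxcl1 at 0.212 and Cxcl5 at 0.342. Cxcl1, Cxcl3 and Cxcl5 were thus farther from the mean profile than each gene named here. Nearness to this mean is not nearness to each chemokine. For replicates 1, 2 and 3 Ccl9 measured 108, 124 and 72.0 TPM without OA and 177, 198 and 211 TPM with OA.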

How the data were processed

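RNA was sequenced from 3 control and 3 OA libraries of mouse splenic NK cells. Per the submitters' processing notes the tools were Bowtie2, RSEM 1.3.1 and DESeq2 1.4.5, and the build was mm10; which step each did, the annotation and any filter are not given in the sources used here. Per the file headers, the authors deposited, for 559 genes, TPM per library and per group, a log2 fold change, and a P value and Q value (p-values as the authors computed them). Columns were matched to samples by title.

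The whole table was fitted in limma 3.58.1 (R 4.3.3), on log2(TPM + 1), unfiltered and without covariates; p-values were two-sided and adjusted over the table by Benjamini-Hochberg, with a threshold of 0.05; fold changes on this scale understate those of low genes. The fit was tried on simulated data with independent genes, of which only a part was changed. The deposited genes were all selected as changed on these libraries, so that trial does not cover the calls given here. The chemokines, 13 gene lists and tests were chosen with earlier results of these data known. Named genes were up to 4 listed genes per list (6 for CC chemokines, upstream cytokines and monocyte markers) with the smallest adjusted p, ties by unadjusted p, and the 5 nearest profiles. Ccl24, Tnf, Il17f, Csf2, Nod1 and Gzmb were chosen after their values were seen. The genes named as not listed were chosen after their absence was seen. Sequences are from RefSeq (GRCm38.p6; 3 of 4 promoters matched) and GENCODE M21. Alternatives were other pseudocounts (0.1 and 10), a level filter of 5 TPM, median scaling, a replicate block, a trended robust prior, a threshold of 0.01 and leaving out libraries. The medians were taken over the 559 listed genes. Those genes were selected on these same libraries, so their median need not track library size. Tables and plots were made in Python 3.11.15 (pandas 2.3.3, scipy 1.17.1, matplotlib 3.10.9).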

Additional observations from a re-analysis of the deposited data

How the results depend on the processing

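No chemokine changed sign under the 14 alternatives; Cxcl1 ranged from 0.85 to 1.44, Cxcl2 from 0.70 to 1.1, Cxcl3 from 0.80 to 1.35 and Cxcl5 from 0.30 to 0.51 (log2), and each kept its call under 10. At an adjusted p under 0.01 limma called 0 of the 4 (Cxcl1 1.23, Cxcl2 0.97, Cxcl3 1.16, Cxcl5 0.44), 0 listed genes as higher, 1 as lower and 0 genes of any list (unadjusted, p was under 0.05 for 213 higher and 252 lower genes). With the replicate block the log2 values were the same (1.23, 0.97, 1.16 and 0.44; adjusted p = 0.115 for each, limma), with 0 of the 4 and 0 genes of the table or of any list called (unadjusted, 149 and 89). Deviations from the group means correlated at 0.33, −0.11 and −0.08 for numbers 1, 2 and 3, and not every library correlated best with its own number. With 3 libraries per group these correlations cannot decide whether the replicate numbers pair the libraries.

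Leaving out 1 library, Cxcl1 ranged from 0.89 to 1.44, Cxcl2 from 0.77 to 1.1, Cxcl3 from 0.88 to 1.35 and Cxcl5 from 0.34 to 0.51, with 0 to 4 of the 4 called. All listed genes ranged from 0 to 177 higher and 0 to 187 lower: 0 in both directions without control replicate 1 (171 and 168 unadjusted), likewise 0 when OA replicate 2 was left out (159 and 168 unadjusted), 87 and 13 without control replicate 2, 119 and 30 without control replicate 3, and 138 lower without OA replicate 3. The lists ranged from 0 to 6 higher and 0 to 2 lower for CC chemokines, 0 to 6 and 0 to 4 for upstream cytokines, 0 to 3 and 0 to 1 both for NF-kB and AP-1 and for decay factors, 0 to 2 and 0 to 1 for neutrophil, mast cell and basophil markers, 0 to 5 and 0 to 1 for monocyte markers, 0 to 13 lower for NK markers, 0 to 4 higher for B cell markers and 0 to 12 higher for heart muscle markers (12 without OA replicate 1). With libraries scaled to equal medians 82 listed genes were lower, and the share of calls that were higher was 66.4%, against 47.3% as deposited; monocyte markers gave 5 higher and 1 lower, NK markers 7 lower, neutrophil, mast cell and basophil markers 1 lower, and the NF-kB and decay lists 0 lower. With the level filter 1 neutrophil marker was higher, since Mmp9 fell under 5 TPM. Without replicate 3 of both groups 1 monocyte marker and 0 NF-kB genes were lower. Other causes were not tested. The depth is unknown, so counting error could not be given.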
